A study of Homo sapiens with 12 samples.

Results

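The VPS and CHMP genes encode most of the machinery that sorts membrane proteins at endosomes. They were taken as every gene of the deposited expression table whose symbol begins with VPS or CHMP followed by a digit, without symbols that hold a hyphen (antisense and readthrough entries) or end in P and a number (pseudogene copies). Of 58 such symbols, 5 were dropped for a hyphen and 6 for the pseudogene ending. The remaining 47 genes, 35 VPS and 12 CHMP, stand among 56337 genes in the table. All but CHMP1B2P, a unitary pseudogene, are protein coding, and 45 reached the mean of 1 FPKM (fragments per unit of transcript length and of sequencing depth) over the 12 libraries that was asked for before testing. The other two were CHMP1B2P, listed at 0 to 0.06 FPKM, and VPS37D.

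The endosomal sorting complexes required for transport (ESCRT) act in sequence. ESCRT-0 and ESCRT-I gather ubiquitinated cargo, ESCRT-II links them to ESCRT-III, whose CHMP subunits polymerise and bud the membrane into the endosome, and the VPS4 ATPases take the polymer apart again. HOPS (VPS11, VPS16, VPS18, VPS33A, VPS39 and VPS41) tethers late endosomes and autophagosomes to lysosomes, while its relative CORVET tethers early endosomes. Retromer (VPS35, VPS29 and either VPS26A or VPS26B) and the related retriever return cargo from endosomes, and GARP and EARP tether the carriers that arrive at the Golgi or at recycling endosomes. VPS72 shares the name only: its product is a subunit of chromatin remodelling complexes.

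RNA was sequenced from HEK293T, a human embryonic kidney line with the SV40 large T antigen, labelled wild type and kept in RPMI with serum. Cells received ferric ammonium citrate (FAC, an iron source, 0.1 mg/ml) or none for 24 h and then bafilomycin A1 (BafA1, 10 nM) or none for 24 h. BafA1 blocks the V-ATPase, the proton pump that acidifies endosomes and lysosomes. Each of the 4 groups held 3 libraries: control (neither agent), BafA1, FAC, and FAC+BafA1. The labels number the replicates and do not say whether each was a culture of its own. A p-value here therefore speaks of the spread among these libraries, which may be technical.

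Libraries of the same group correlated at r of 0.993 to 0.995 over all genes on the log scale, groups alike in FAC at 0.959 to 0.991, and groups that differed in FAC at only 0.873 to 0.907. Between the 6 libraries with FAC and the 6 without, 323 genes were listed at 0 in all with FAC and at 1 FPKM or more in all without, and 304 the reverse. None of these genes is a VPS or CHMP member, but comparisons across the FAC sides (FAC with control, FAC+BafA1 with BafA1) rest on the 2 sides being comparable. The interaction sets the BafA1 change with FAC against that without. It thus rests on changes, if not levels, being comparable between the sides. The summed FPKM was 600261 to 604483 in the BafA1 libraries and 634935 to 651311 in the other libraries. Depth, estimated from the steps of the low values, was 32.8 to 36.5 M fragments a library. Of the HEK293T markers, VIM ran from 331.79 to 713.51 FPKM, NEFM from 48.46 to 107.46 and NEFL from 27.95 to 36.29, while PAX2 and LHX1 stayed at 1.36 or less. Markers of blood and squamous cells lay near 0, with KRT17 the highest of them at up to 1.01. COL1A1, a fibroblast gene, ran from 2.68 to 7.45, while COL3A1, DCN and LUM were at 0.69 or less.

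In control cells the tested members ran from a few FPKM to over 100. VPS25, an ESCRT-II subunit, was the most abundant at 125 ± 5.17 FPKM (SD, n = 3, as for all levels below). The 3 retromer core subunits followed, VPS35 at 76.3 ± 2.83, VPS26A at 74.7 ± 4.25 and VPS29 at 71.9 ± 5.35, with VPS72 among them at 74.5 ± 4, and the order of these genes is within their spread. VPS26B, the alternative to VPS26A, was at 18.4 ± 0.754. FPKM is scaled to transcript length but was not corrected here for transcript GC content or gene overlaps. Levels of different genes can therefore be set beside each other only roughly. Among the HOPS subunits VPS33A (33.1 ± 2.49) and VPS41 (30.5 ± 3.19) did not differ beyond their spread and stood above VPS39 (14.2 ± 0.954), VPS16 (13.8 ± 0.557), VPS11 (10.6 ± 0.651) and VPS18 (6.88 ± 0.368). In ESCRT-III, CHMP5 (64.7 ± 2.12), CHMP3 (57.7 ± 1.07) and CHMP2B (56.2 ± 0.687) were highest, and CHMP4C (3.17 ± 0.297) and CHMP1B (7.74 ± 0.358) lowest. Other low members were VPS9D1 (2.69 ± 0.0751), which carries a Rab guanine exchange domain, and the very long lipid transfer genes VPS13B (3.52 ± 0.114), VPS13D (4.22 ± 0.69) and VPS13C (4.47 ± 0.46).

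BafA1 alone raised some members and lowered others, in several families with paralogs on both sides. Without FAC, limma on log2(FPKM + 1) called 29 of the 45 tested members (adjusted p below 0.05), 14 of them higher and 15 lower. That is 64.4%, beside 67.1% of all 13682 genes tested, and 30 members had groups that did not overlap, beside 68.7% of all genes. The share called was therefore near the background (29.5% of all genes higher, 37.6% lower), and the median change of the members, -0.04, equalled that of all genes. Changes were small: the members ran from -0.67 to 0.72 on the log2 scale, with a median absolute change of 0.26 against 0.31 over all genes. In bulk RNA, fewer cells with a transcript and less of it per cell cannot be told apart. Of the 19 tested ESCRT-I, ESCRT-II, ESCRT-III and VPS4 genes, 18 changed, 9 in each direction, and CHMP3 (-0.02, adjusted p = 0.578) was the exception. HOPS had 3 of 6 lower and 0 higher, retromer 2 of 4 lower and 1 higher, and GARP and EARP 1 of 5 higher. Of the 2 genes listed under retriever, VPS26C and VPS35L, 0 passed in either direction, also at an unadjusted p under 0.05. VPS29, which retriever shares with retromer, was counted under retromer only.

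**Figure D1:**
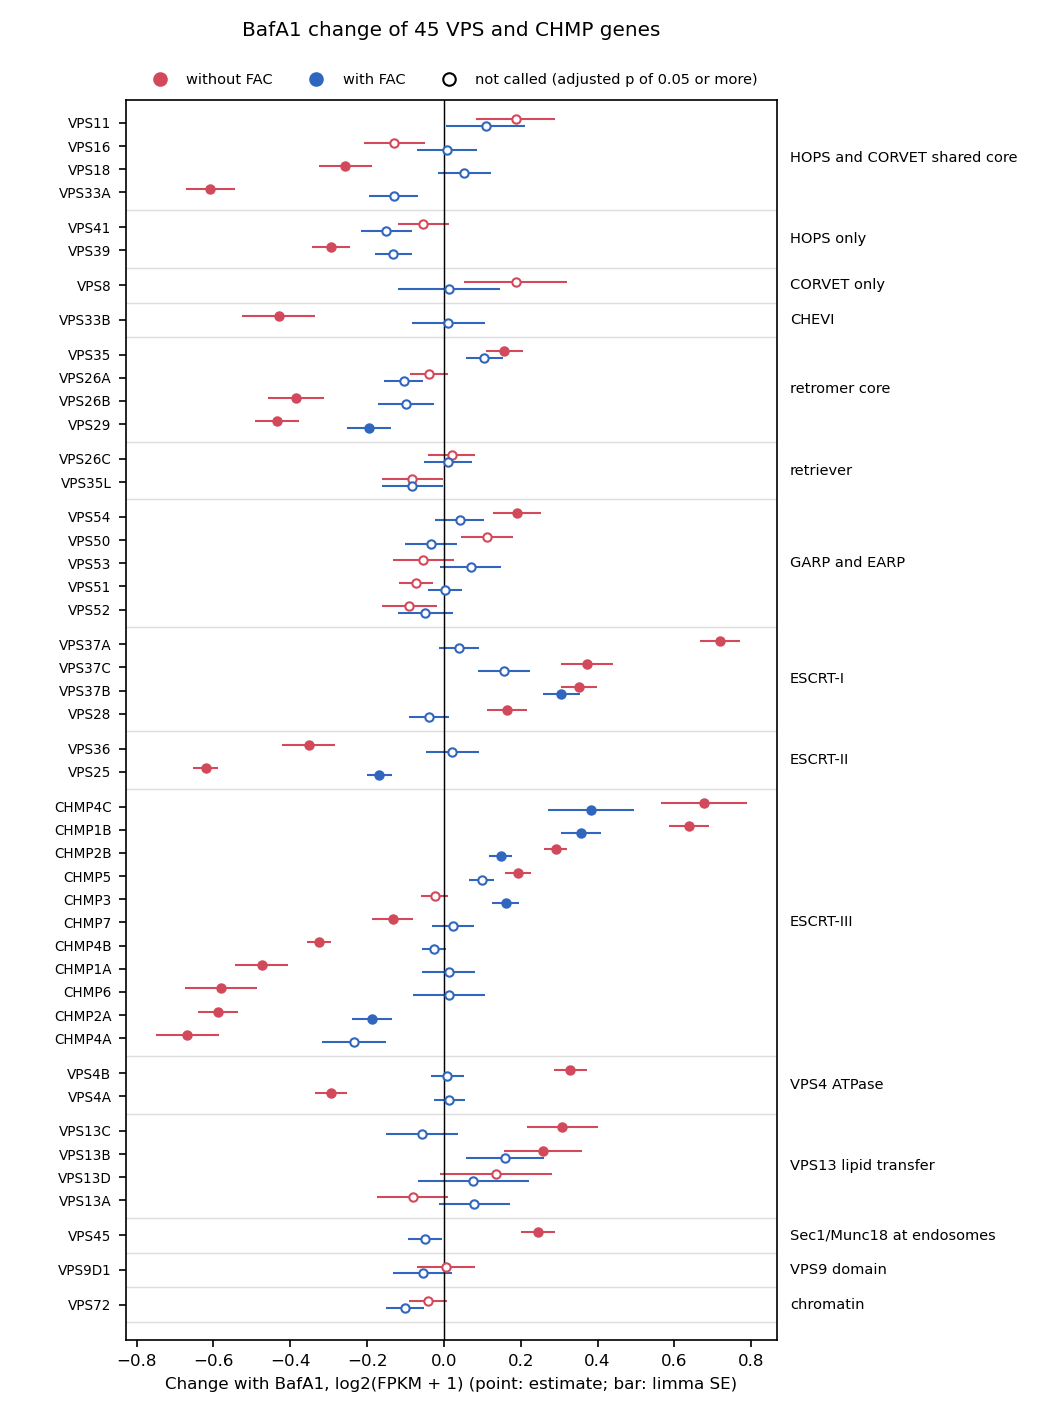
Change with BafA1 of the 45 tested genes, by complex, on the log2(FPKM + 1) scale (point: limma estimate, bar: its SE), without FAC in red and with FAC in blue, open where not called. ESCRT genes spread from -0.67 (CHMP4A) to 0.72 (VPS37A) without FAC. GARP and EARP genes and the 2 genes listed under retriever (VPS26C and VPS35L, without VPS29) stay between -0.09 and 0.19.

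The promoters of 4 members whose RNA moved in opposite directions are printed here, 250 bases before the RefSeq start on GRCh38.p14, in the direction of the gene. CHMP1B (chr18:11851163-11851412, + strand) and VPS37B (chr12:122896125-122896374, - strand) rose with BafA1 both with and without FAC. VPS25 (chr17:42773199-42773448, + strand) and CHMP2A (chr19:58555106-58555355, - strand) fell with BafA1 on both FAC sides. Capitals mark the E-box CACGTG, the core site of the TFE3 and TFEB family, and the cAMP response element TGACGTCA.
CHMP1B: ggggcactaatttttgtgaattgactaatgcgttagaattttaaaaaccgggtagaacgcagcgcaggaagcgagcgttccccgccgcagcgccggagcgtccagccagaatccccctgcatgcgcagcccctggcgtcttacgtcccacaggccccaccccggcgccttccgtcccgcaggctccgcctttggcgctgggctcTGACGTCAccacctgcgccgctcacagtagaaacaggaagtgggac
VPS37B: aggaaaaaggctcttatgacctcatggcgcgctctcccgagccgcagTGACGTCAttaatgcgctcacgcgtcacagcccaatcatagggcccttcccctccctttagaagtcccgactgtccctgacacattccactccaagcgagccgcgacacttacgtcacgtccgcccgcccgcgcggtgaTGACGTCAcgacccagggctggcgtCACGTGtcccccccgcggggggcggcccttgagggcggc
VPS25: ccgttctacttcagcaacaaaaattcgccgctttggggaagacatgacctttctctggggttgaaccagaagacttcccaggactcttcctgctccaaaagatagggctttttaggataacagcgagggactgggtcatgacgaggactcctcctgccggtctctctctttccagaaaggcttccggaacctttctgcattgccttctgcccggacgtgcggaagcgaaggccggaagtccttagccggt
CHMP2A: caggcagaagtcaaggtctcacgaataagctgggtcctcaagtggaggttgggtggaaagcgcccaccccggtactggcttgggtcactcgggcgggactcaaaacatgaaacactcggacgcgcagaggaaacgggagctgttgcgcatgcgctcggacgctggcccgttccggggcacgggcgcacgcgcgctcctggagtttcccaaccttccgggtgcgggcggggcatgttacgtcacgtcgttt

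Of the 32 members with a promoter in the RefSeq table, CACGTG occurred in 6 (CHMP4A, VPS11, VPS16, VPS26C, VPS36 and VPS37B), against 7.73% of all 27305 genes with such a promoter. Counted by promoter, since some genes have more than 1, it was in 7 of 38 and in 6.34% of all 35116. The VPS11 windows overlap and have a site in common, which is counted in both. By BafA1 change, 1 of 9 raised, 2 of 10 lowered and 3 of 12 uncalled members held it, and the remaining member was not tested. The ATF4 element TGATGNAA occurred in 0 of 32 members, in 3.89% of all genes and in 3.14% of all promoters. TGACGTCA, searched for after these sequences had been read, occurred in CHMP1B and VPS37B alone among the 32, in 2.03% of all genes and in 1.65% of all promoters. CHMP1B holds it 46 bases before the start, and VPS37B holds it at 203 and 64 bases before the start, with its E-box at 39. CACGTG and TGACGTCA each read the same on both strands, TGATGNAA was searched on both, and within a window none of the matches overlap. These are matches of letters, not sites shown to be bound.

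All 4 tested ESCRT-I members rose. VPS37 subunits complete ESCRT-I, and each complex holds 1 of the paralogs. VPS37A stood at 11.64, 11.59 and 10.5 FPKM in the control libraries and at 18.54, 19.6 and 19.32 with BafA1. That is a 1.7-fold ratio of means and a log2 change of 0.72 ± 0.05 (limma SE, as for all changes below; adjusted p = 1.43e-07), with a wide gap between the groups. VPS37C moved from 8.07, 7.59 and 8.86 to 11.36, 10.38 and 10.84 FPKM (0.37 ± 0.07, adjusted p = 0.000397). VPS37B moved from 10.12, 10.68 and 10.76 to 13.64, 13.82 and 13.65 FPKM (0.35 ± 0.05, adjusted p = 3.11e-05). VPS28, the subunit that contacts ESCRT-II, rose least (0.17 ± 0.05, adjusted p = 0.0134) and missed the threshold without BafA1 replicate 2 (adjusted p = 0.0575). VPS37D, below the level asked for, went the other way: 1.18, 1.39 and 1.38 FPKM in control and 0.55, 0.68 and 0.61 with BafA1 (-0.52 ± 0.09, adjusted p = 0.0012 in a limma fit with no filter).

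Both ESCRT-II members fell. VPS25 was at 128.18, 127.99 and 119.14 FPKM in control and at 82.47, 80.96 and 79.57 with BafA1, with no overlap (-0.62 ± 0.03, adjusted p = 1.05e-08). VPS36, which binds ubiquitin and phosphoinositide, changed by -0.35 ± 0.07 (adjusted p = 0.000643), from a mean of 20.7 to 16 FPKM. The remaining ESCRT-II subunit is SNF8, which carries no VPS symbol. It went from 145 ± 8.91 to 94.6 ± 2.13 FPKM (-0.61, adjusted p = 1.18e-07).

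ESCRT-III divided into 4 higher, 6 lower and 1 uncalled. The largest increase was in CHMP4C, the CHMP4 paralog tied to the abscission checkpoint of cell division. It read 3.21, 3.45 and 2.86 FPKM in control and 5.53, 5.41 and 6.08 with BafA1, a 1.79-fold ratio (0.68 ± 0.11, adjusted p = 0.00018). CHMP1B, which coats tubules together with IST1, read 7.33, 7.96 and 7.94 in control and 12.46, 13.04 and 12.29 with BafA1 (1.63-fold, 0.64 ± 0.05, adjusted p = 3.99e-07). In both genes every BafA1 library lay above every control library. CHMP2B rose by 0.29 ± 0.03 (adjusted p = 3.29e-06) and CHMP5 by 0.19 ± 0.03 (adjusted p = 0.000248).

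Of the ESCRT-III genes that fell, CHMP4A went from 33.55, 28.56 and 27.99 FPKM to 18.57, 18.02 and 18.84 (-0.67 ± 0.08, adjusted p = 1.62e-05). CHMP2A, an ESCRT-III cap subunit that recruits VPS4, went from 51.42, 51.1 and 47.79 to 32.66, 35.93 and 30.49 (-0.59 ± 0.05, adjusted p = 8.14e-07). CHMP6, which receives the ESCRT-II signal, went from 15.6, 16.52 and 17.87 to 11.83, 10.32 and 10.31 (-0.58 ± 0.09, adjusted p = 0.000147). None of the 3 genes overlapped between the groups. CHMP1A (-0.47), CHMP4B (-0.32) and CHMP7 (-0.13, adjusted p = 0.046) also fell. CHMP7 is known for sealing the nuclear envelope, and its call held in only 9 of 22 alternative analyses. The VPS4 ATPases parted as well, VPS4B up by 0.33 ± 0.04 (adjusted p = 2.47e-05) and VPS4A lower at -0.29 ± 0.04 (adjusted p = 4.63e-05).

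Some members overlap other genes, and whether the counting used strand is not given in the sources used here. CHMP1B lies within GNAL, on the same strand, whose mean went from 6.08 to 3.6 FPKM, and opposite CHMP1B-AS1, which went from 10.9 to 15.66. CHMP4C overlaps ZFAND1 on the other strand, which went from 36.08 to 92.77 FPKM with BafA1. The part of ZFAND1 or CHMP1B-AS1 reads in the 2 increases was not tested. ZFAND1 was at 38.31 FPKM in the FAC and 39.83 in the FAC+BafA1 group.

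**Figure D2:**
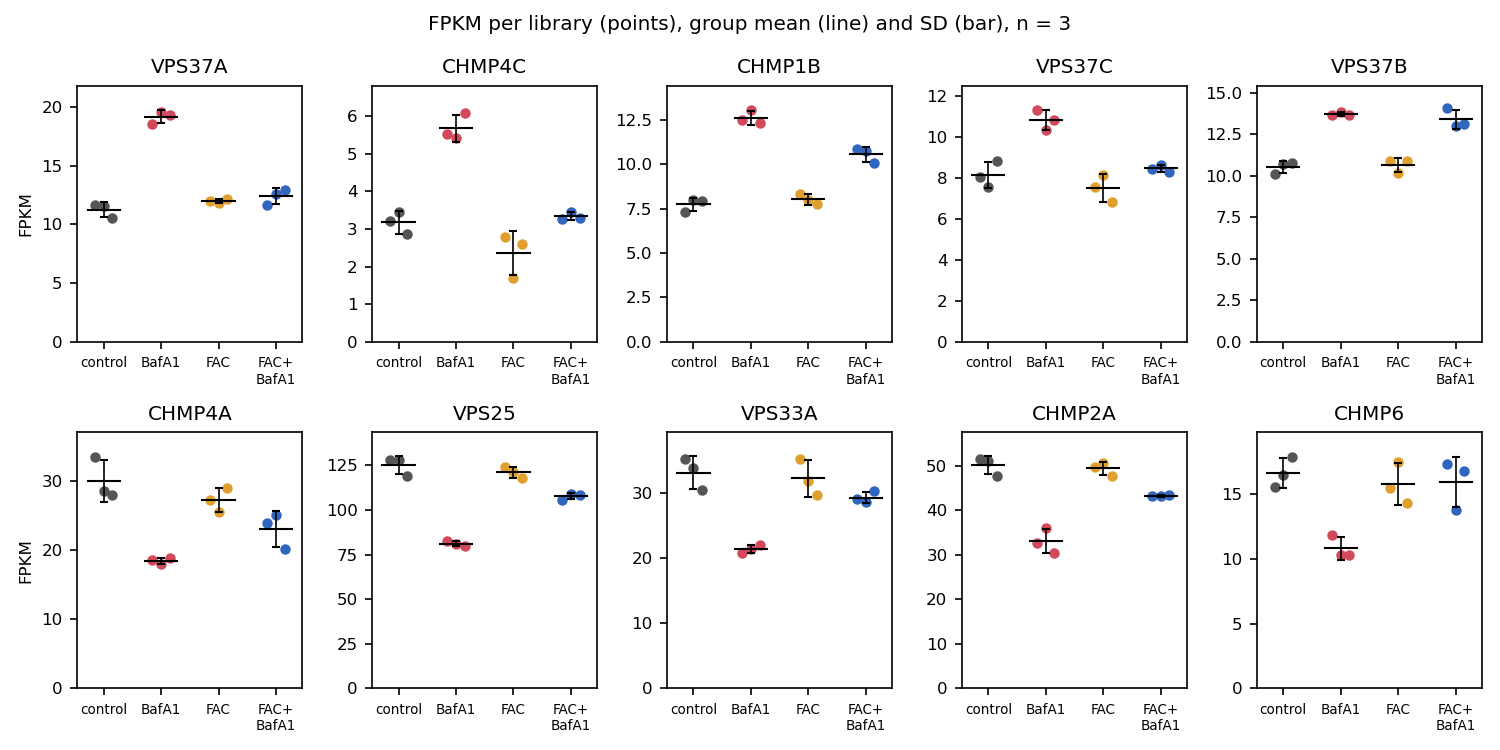
FPKM of 10 named genes in each library (points), with group mean (line) and SD (bar, n = 3). VPS37A, CHMP4C and CHMP1B are highest in the 3 BafA1 libraries, and CHMP4A, VPS25, VPS33A, CHMP2A and CHMP6 lowest there.

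HOPS members went down or did not pass. VPS33A, the SNARE-binding subunit, moved furthest, from 35.2, 33.72 and 30.35 FPKM in control to 20.71, 21.37 and 21.9 with BafA1 (-0.61 ± 0.06, adjusted p = 3.66e-06), with no overlap. VPS39, found in HOPS and not in CORVET, changed by -0.29 ± 0.05 (adjusted p = 0.000179), and VPS18, a core scaffold subunit, by -0.26 ± 0.07 (adjusted p = 0.00576). VPS16 (-0.13 ± 0.08, adjusted p = 0.172), VPS41 (-0.05 ± 0.07, adjusted p = 0.508) and VPS11 (0.19 ± 0.1, adjusted p = 0.126) did not pass. The subunits of this complex thus did not move as a block. With a correction for transcript GC and length, added after the data were seen, VPS18 lost its call (-0.09, adjusted p = 0.223) while VPS11 (0.31, adjusted p = 0.0138) and VPS41 (-0.18, adjusted p = 0.0314) were called. VPS8, the subunit special to CORVET, was at 0.19 ± 0.13 (adjusted p = 0.238). VPS33B, the VPS33A paralog of the separate CHEVI complex, fell as VPS33A did (-0.43 ± 0.1, adjusted p = 0.0016).

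In retromer the subunits did not share 1 direction. VPS29 went from 76.39, 73.4 and 65.99 FPKM to 50.34, 54.11 and 54.11 (-0.44 ± 0.06, adjusted p = 2.39e-05), so that no BafA1 library reached the control libraries. VPS26B changed by -0.38 ± 0.07 (adjusted p = 0.000496) while VPS26A was at -0.04 ± 0.05 (adjusted p = 0.516). VPS35, the scaffold, was higher by 0.16 ± 0.05 (adjusted p = 0.0123), a call that was lost without BafA1 replicate 2. With the GC and length correction VPS35 was not called (0.04, adjusted p = 0.463), and VPS26A (-0.17, adjusted p = 0.00831), VPS26B (-0.24) and VPS29 (-0.45) were all called lower. As levels, VPS35, VPS26A and VPS29 stood at 85.3 ± 5.07, 72.7 ± 4.14 and 52.9 ± 2.18 FPKM with BafA1. Of the genes listed under retriever, VPS26C was at 0.02 ± 0.06 and VPS35L at -0.08 ± 0.08.

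Of GARP and EARP, only VPS54 was called (0.19 ± 0.06, adjusted p = 0.0181, held in 15 of 22 alternative analyses), and VPS50, VPS51, VPS52 and VPS53 lay between -0.09 and 0.11. In the VPS13 family, which moves lipids between organelles, VPS13C (0.31 ± 0.09, adjusted p = 0.0109) and VPS13B (0.26 ± 0.1, adjusted p = 0.0401) rose, while VPS13A (-0.08) and VPS13D (0.14) did not pass. The VPS13B call held in 12 of 21 alternative analyses and was lost without any 1 of the control or BafA1 libraries. VPS45, a Sec1/Munc18 protein for early endosome fusion, rose by 0.24 ± 0.04 (adjusted p = 0.000336). VPS9D1 (0.00) and VPS72 (-0.04) were not called.

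Several families hold paralogs that can take the same place in a complex, and with BafA1 their mix shifted. The share of CHMP1B in the summed CHMP1A and CHMP1B level was 15.3 ± 0.34% in control and 29.2 ± 1.3% with BafA1. CHMP2B made up 52.9% of the CHMP2 pair in control and 67.7% with BafA1, with a summed CHMP2 level of 106 and 102 FPKM. VPS4B went from 31.4% to 41.9% of the VPS4 pair at a summed 42.9 and 41.0 FPKM. In CHMP2 and VPS4 the mix thus moved more than the sum. CHMP4C went from 3.74% to 8.7% of the CHMP4 family, whose sum went from 84.9 to 65.2 FPKM. The VPS37 family had a larger sum, 31.3 FPKM in control and 44.3 with BafA1, and in it VPS37A went from 36.0% to 43.2% and VPS37D from 4.21% to 1.38%. These shares are descriptions without a test, and as ratios within a library they do not depend on scaling between libraries. They do rest on FPKM without a correction for transcript GC and length, with which the changes of CHMP2A and CHMP2B were -0.24 and 0.13 in place of -0.59 and 0.29, and those of VPS4A and VPS4B -0.19 and 0.22 in place of -0.29 and 0.33.

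**Figure D3:**
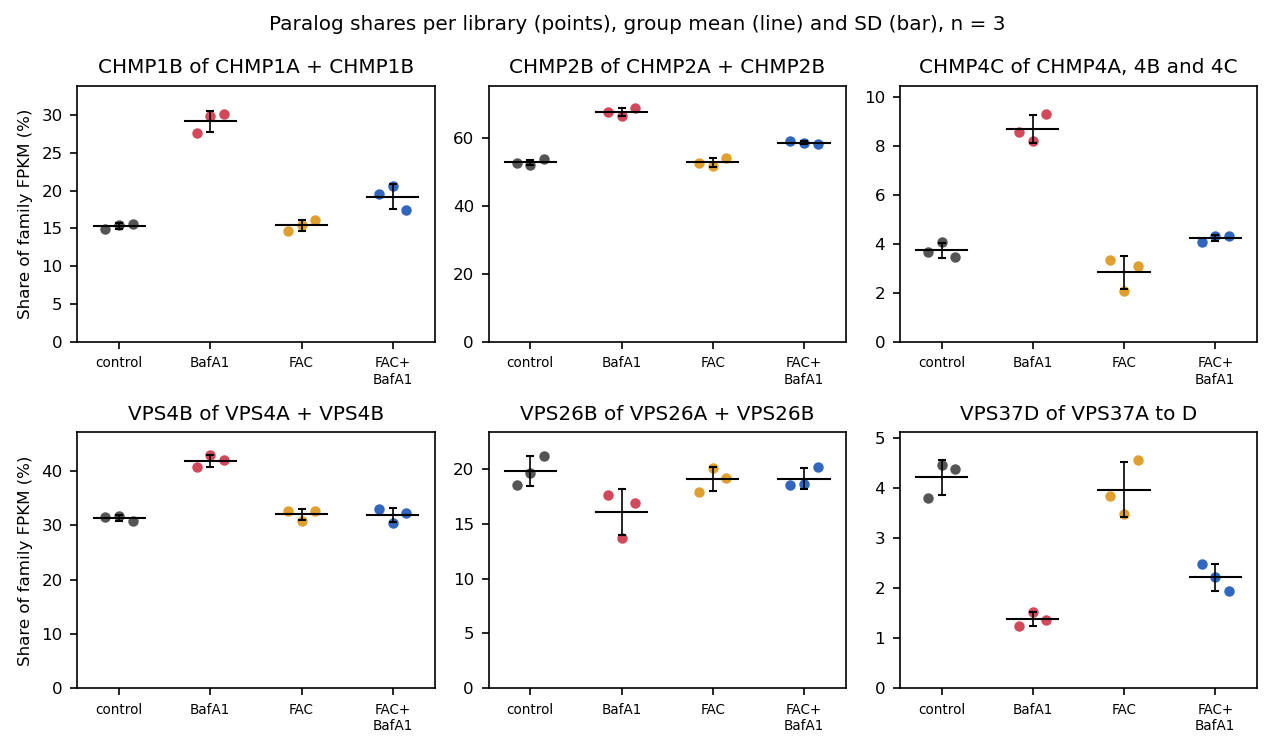
Share of a paralog in the summed FPKM of its family (%), per library (points) with group mean (line) and SD (bar, n = 3). The BafA1 libraries stand apart in the CHMP1, CHMP2, CHMP4 and VPS4 panels, and there the FAC+BafA1 libraries lie nearer to control, at 32.0% for VPS4B and 19.2% for CHMP1B. In the VPS37D panel the FAC+BafA1 mean (2.22%) lies nearer to BafA1 (1.38%) than to control (4.21%).

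FAC alone moved no member past the threshold. With limma, 0 of 45 were called in FAC with control (4 at an unadjusted p under 0.05), against 9.56% of all genes. The share of all genes depends on the filter and was 4.16% at a mean of at least 5 FPKM. It can also include the 323 and 304 genes listed at 0 throughout on a single FAC side. No member is among those genes, so the member count and this share compare only roughly. Changes ran from -0.33 to 0.16, with a median of 0.01. CHMP4C was nearest to a call, at 3.21, 3.45 and 2.86 FPKM in control and 2.78, 1.7 and 2.6 with FAC (-0.33 ± 0.11, adjusted p = 0.12). Without FAC replicate 1 it was called, and it was then the only member called.

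With FAC present, BafA1 changed fewer members. In FAC+BafA1 with FAC, 8 of 45 were called (17.8%, beside 19.3% of all genes), 5 higher and 3 lower (9.76% and 9.49% of all genes), with a median of 0.01. In 15 members the groups did not overlap, beside 36.9% of all genes. Of the 8, 7 were ESCRT genes and 1 was VPS29. This comparison shares no library with BafA1 against control. Called the same way in both were 7 members, 24.1% of the 29 called without FAC and 87.5% of the 8 called with it, and over all genes the like shares were 22.1% and 76.9%. No member was called in opposite directions.

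CHMP1B read 8.34, 7.98 and 7.73 FPKM with FAC and 10.84, 10.75 and 10.04 with FAC+BafA1 (0.36 ± 0.05, adjusted p = 0.00068). VPS37B read 10.88, 10.14 and 10.91 and then 14.06, 12.99 and 13.14 (0.31 ± 0.05, adjusted p = 0.000972). The calls of both genes, and those of CHMP2B and VPS25, held in all 22 alternative analyses. CHMP4C read 2.78, 1.7 and 2.6 and then 3.26, 3.46 and 3.3 (0.38 ± 0.11, adjusted p = 0.0327), and without FAC replicate 2, its low library, it was at 0.23 (adjusted p = 0.0837). Its call held in 14 of 21 alternative analyses. CHMP2B (0.15, adjusted p = 0.00544) and CHMP3 (0.16, adjusted p = 0.00907) were also higher. CHMP3 is the member called here and not without FAC.

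Lower were VPS25, at 124.19, 121.14 and 118.09 FPKM with FAC and 105.78, 108.73 and 108.64 with FAC+BafA1 (-0.17 ± 0.03, adjusted p = 0.00475), and 2 genes whose calls were less firm. CHMP2A read 49.82, 50.62 and 47.73 and then 43.21, 43.09 and 43.53 (-0.19 ± 0.05, adjusted p = 0.0272), and VPS29 read 70.59, 69.27 and 72.14 and then 65.34, 61.84 and 57.73 (-0.2 ± 0.06, adjusted p = 0.0311). In all 3 genes the groups did not overlap. Of HOPS, 0 of 6 were called by limma, 2 of them (VPS39 and VPS41) at an unadjusted p under 0.05. The 2 VPS4 genes were both at 0.01.

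Whether the BafA1 change itself differed with FAC was tested by the interaction, the BafA1 change with FAC minus that without. It was called for 21 of 45 members (46.7%, beside 50.1% of all genes), 14 positive and 7 negative (29.5% and 20.6% of all genes). Of all genes called, 58.9% were positive, and 48.6% with the correction for transcript GC and length. The largest positive values were in CHMP6 (0.59 ± 0.13, adjusted p = 0.00284), CHMP1A (0.49 ± 0.1, adjusted p = 0.00146) and VPS33A (0.48 ± 0.09, adjusted p = 0.000935). With FAC, CHMP6 read 15.52, 17.53 and 14.36 FPKM and with FAC+BafA1 17.34, 13.76 and 16.84, overlapping ranges with a change of 0.01 in place of -0.58. Its interaction missed the threshold with the GC and length correction (0.27, adjusted p = 0.0691), under which CHMP1A (0.25) and VPS33A (0.45) stayed called. CHMP1A read 41.8, 43.88 and 42.99 in control, 32.62, 30.72 and 28.56 with BafA1, 48.39, 43.9 and 40.27 with FAC and 44.46, 41.38 and 47.74 with FAC+BafA1, so only its BafA1 libraries stood low. VPS33A read 35.21, 31.75 and 29.65 with FAC and 29.07, 28.51 and 30.19 with FAC+BafA1 (-0.13, not called).

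The largest negative interactions were in VPS37A (-0.68 ± 0.07, adjusted p = 1.49e-05), VPS13C (-0.36 ± 0.13, adjusted p = 0.0361) and VPS4B (-0.32 ± 0.06, adjusted p = 0.000952). VPS37A stayed at 12, 11.83 and 12.19 FPKM with FAC and 11.61, 12.62 and 12.92 with FAC+BafA1, a change of 0.04 in place of 0.72. VPS4B read 13.38, 14.1 and 12.88 in control, 16.78, 17.3 and 17.36 with BafA1, 13.81, 13.37 and 13.96 with FAC and 13.83, 13.48 and 14.1 with FAC+BafA1. VPS13C read 4.32, 4.11 and 4.99, then 6.24, 5.09 and 6.01, then 5.29, 5.64 and 4.45, and last 5, 4.99 and 4.63 in the same order of groups. The VPS13C interaction is the weakest of these and missed the threshold without, for example, FAC replicate 2 (-0.3, adjusted p = 0.0869). Of the other VPS37 paralogs, VPS37B (-0.05, adjusted p = 0.593) and VPS37C (-0.22, adjusted p = 0.0827) did not pass, but with the GC and length correction both were called in the direction of VPS37A (-0.24, adjusted p = 0.0232, and -0.41, adjusted p = 0.00124).

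Set directly against BafA1, FAC+BafA1 had 23 of 45 members called (51.1%, beside 67.9% of all genes), 15 higher and 8 lower (38.8% and 29.1% of all genes). CHMP1A (0.52 ± 0.07, adjusted p = 2.69e-05), CHMP6 (0.52 ± 0.09, adjusted p = 0.000348) and VPS33A (0.44 ± 0.06, adjusted p = 6.13e-05) were furthest up. CHMP4C (-0.62 ± 0.11, adjusted p = 0.000357), VPS37A (-0.59 ± 0.05, adjusted p = 7.31e-07) and VPS37C (-0.32 ± 0.07, adjusted p = 0.00114) were furthest down. VPS37C, at 11.36, 10.38 and 10.84 FPKM with BafA1, read 8.46, 8.67 and 8.32 with FAC+BafA1. With the GC and length correction 6 of the 23 calls were lost, CHMP1A was at 0.28 and CHMP6 at 0.21, and VPS51 went from a call higher (0.11, adjusted p = 0.043) to a call lower (-0.18, adjusted p = 0.00047). This comparison shares the BafA1 libraries with BafA1 against control, and it crosses the FAC sides. An unnamed coding gene on the strand of CHMP4A was listed at 0 FPKM without FAC and at a mean of 12.99 with FAC+BafA1, and an entry on the strand of VPS33A was at 0 and 4.39. Their part in the changes of CHMP4A and VPS33A was not tested.

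The GC content of the transcripts moved with the BafA1 change. Over the 45 members the Spearman correlation of GC and change was -0.39, against -0.22 over 13655 genes, and with FAC it was -0.13 and 0.04. It was 0.5 and 0.28 in FAC+BafA1 with BafA1, and 0.45 and 0.27 for the interaction. The points share libraries and are no replicates. Of 18 members under 45% GC, 10 rose and 2 fell. Of 16 between 45% and 55%, 1 rose and 8 fell, and of 11 at 55% or more, 3 rose and 5 fell. Over all genes, 2118 of 5376 under 45% GC rose and 1569 fell. Between 45% and 55%, 1189 of 4473 rose and 1760 fell, and at 55% or more 727 of 3806 rose and 1808 fell. A lean towards lower levels at higher GC was thus not particular to the members. Several paralog pairs follow the same order: CHMP1A has 60.8% GC and CHMP1B 41.5%, CHMP2A 55.8% and CHMP2B 35.2%, VPS4A 54.0% and VPS4B 39.3%. VPS29 (39.1%) fell and VPS37C (59.0%) and VPS37B (58.8%) rose, against that order. CHMP4A (50.7%) was lowered more than CHMP4B (52.5%), and VPS33A (46.7%) more than VPS33B (52.5%), also against it.

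The correction for GC and length lost 6 of the 29 calls without FAC (VPS18, VPS35, VPS54, VPS13B, VPS13C and CHMP7) and changed sizes. Under it CHMP2A was at -0.24, CHMP6 at -0.28, CHMP1A at -0.25, CHMP4B at -0.12, VPS25 at -0.32 and CHMP4A at -0.4, all still lower. CHMP2B was at 0.13, VPS4B at 0.22 and VPS4A at -0.19, with smaller gaps between paralogs. VPS37B (0.54), VPS37C (0.56) and VPS28 (0.54) were larger than uncorrected, and CHMP1B (0.59), VPS33A (-0.6) and VPS29 (-0.45) hardly moved. Called with the correction and not without it were VPS11, VPS41, VPS26A (-0.17), VPS13A (-0.34), VPS51 (0.18), VPS9D1 (0.24) and VPS72 (0.16). Whether GC content has a part in the uncorrected values was not tested beyond this.

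**Figure D4:**
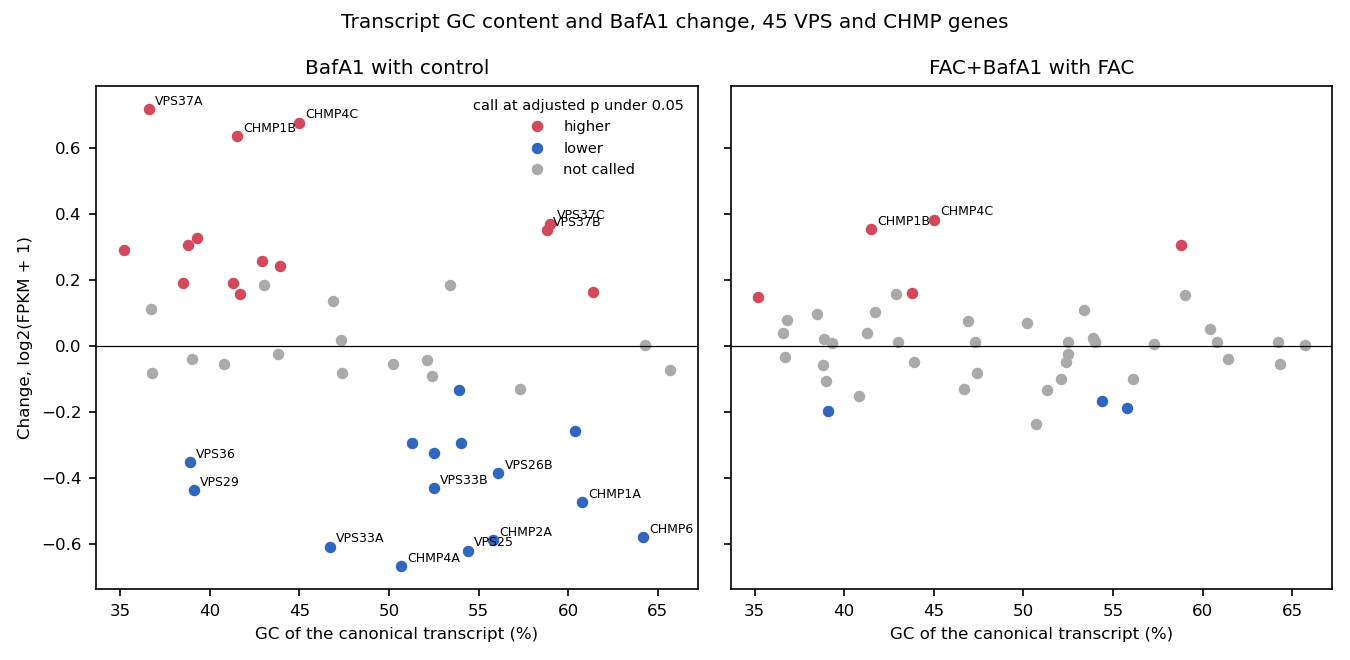
Transcript GC content (%, GENCODE release 44 canonical transcript) and BafA1 change (log2(FPKM + 1)) of the 45 tested genes, coloured by call, without FAC (left) and with FAC (right). Without FAC, under 45% GC 10 of 18 genes rose, and at 45% or more most called genes fell. Over all genes, not drawn, 2118 of 5376 under 45% GC rose and 1569 fell. At 55% or more 727 of 3806 rose and 1808 fell.

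The partners of these complexes that carry other names were read from a list of 65 genes. In BafA1 with control 24 rose and 26 fell, which is 76.9% called beside 67.1% of all genes. All 3 ESCRT-0 genes rose, HGS by 0.48, STAM2 by 0.24 and STAM by 0.16, as did both deubiquitinases that work on ESCRT cargo, USP8 (0.46) and STAMBP (0.39). TSG101, the ESCRT-I core subunit, rose by 0.35 ± 0.05 (adjusted p = 0.000105), next to the 4 tested ESCRT-I members. Of the 4 ESCRT-I partner genes on the list, however, only 1 rose, 1 fell and 2 were not called, with changes from -0.5 to 0.35. Of the 12 genes of the CCC complex, the partner of retriever, 9 fell and 2 rose.

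RAB5A, the early endosome GTPase, had the largest partner increase, from 29.5 ± 0.383 to 63.1 ± 1.95 FPKM (2.14-fold, 1.07 ± 0.03, adjusted p = 1.36e-10). PIK3C3, the kinase that makes endosomal phosphatidylinositol 3-phosphate, went from 25.1 ± 0.786 to 46.1 ± 2.72 FPKM (0.85 ± 0.05, adjusted p = 1.09e-08). CCDC93 of the CCC complex rose by 0.71 ± 0.08. Lowest were RILP, the Rab7 effector that binds HOPS, from 3.17 ± 0.321 to 1.02 ± 0.204 FPKM (3.1-fold lower, -1.05 ± 0.10, adjusted p = 2e-06), SORL1, a retromer cargo receptor, from 1.8 ± 0.153 to 0.59 ± 0.0608 (3.06-fold lower, -0.82 ± 0.08), and COMMD8 of the CCC complex (-0.65 ± 0.08). SORL1 reached the mean of 1 FPKM asked for through the other groups, and RILP was near that level with BafA1. Both folds thus rest on low values.

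With FAC, 8 partners rose and 6 fell, a called share of 21.5% that is near the 19.3% of all genes. RAB5A was then at 31.9 ± 0.783 FPKM with FAC and 33.7 ± 0.834 with FAC+BafA1 (0.08, adjusted p = 0.149), and its interaction was -1 (adjusted p = 2.9e-08). Among the highest were IGF2R, the mannose 6-phosphate receptor that retromer recycles (0.32, adjusted p = 0.0012), and RAB5B (0.23, adjusted p = 0.00409). Lowest were RILP (-0.58, adjusted p = 0.00242), the retromer sorting nexin SNX6 (-0.21, adjusted p = 0.00385) and VIPAS39, the VPS33B partner (-0.2, adjusted p = 0.0329). RILP was thus lower with BafA1 on both FAC sides.

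**Figure D5:**
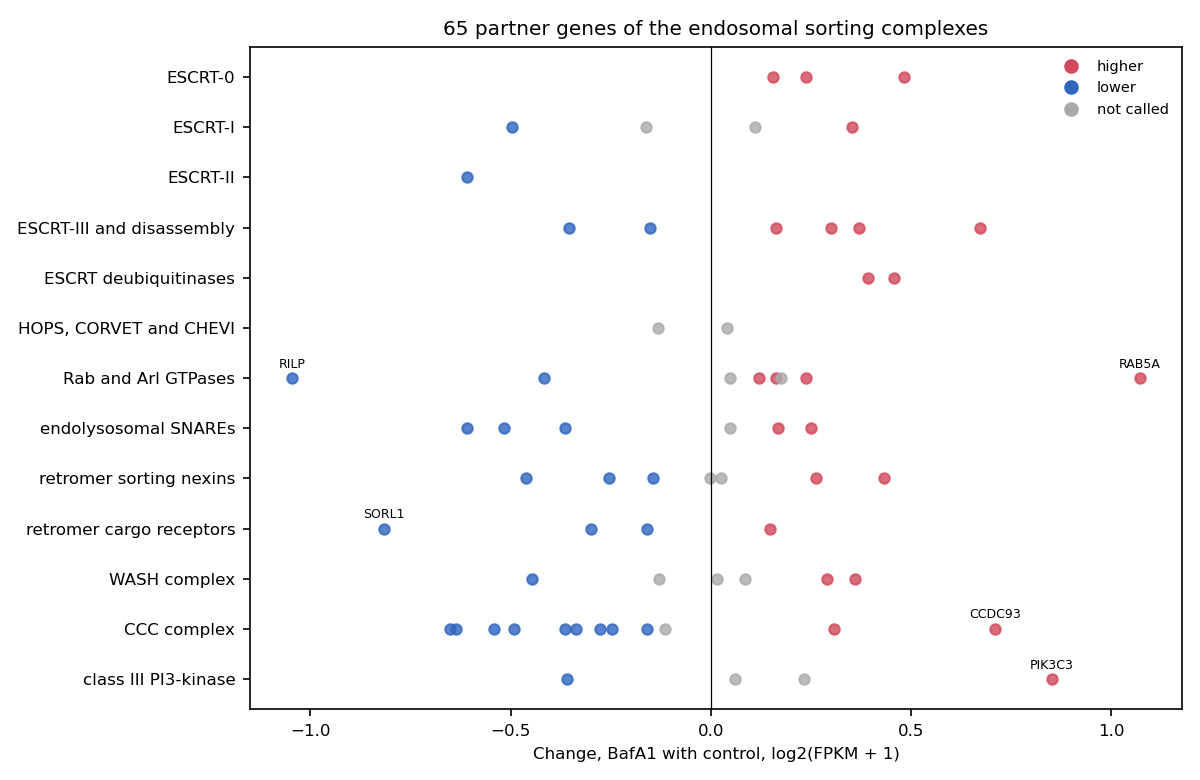
BafA1 change without FAC (log2(FPKM + 1)) of 65 partner genes, 1 point a gene, by list and coloured by call. ESCRT-0 and deubiquitinase genes lie above 0, most CCC genes below 0, and RAB5A (1.07) and RILP (-1.05) at the ends.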

How the data were processed

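RNA-seq of HEK293T cells gave 12 libraries (TruSeq stranded mRNA kit, per the labels' protocols). The deposited table holds FPKM values rounded to 2 decimals, made by the authors with STAR and RSEM on GRCh38, per the submitters' processing notes; tool versions, annotation release, filters and strand setting: not given in the sources used here. Count models do not suit FPKM and were not used. Of 56340 gene entries, 3 repeats at 0 were dropped. Depth was estimated from the low values (single-transcript genes of 700 to 1200 bases under 0.5 FPKM, fragments of 100 bases assumed); 55.4% to 60.3% of these lay within 0.2 of a whole fragment without FAC and 75% to 78.2% with FAC, and no counts were recovered.

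Values were tested as log2(FPKM + 1), which understates changes of low genes, in genes averaging 1 FPKM or more, with limma 3.58.1 (trend) in R 4.3.3 over all 12 libraries, Benjamini-Hochberg adjustment over all genes and a threshold of 0.05. The script was tested on simulated data. Of 13682 genes, 100 were changed by 0.3 and 100 by 1 on the log2 scale. It recovered 53 and 92 of them, with 10 false calls. A member that was not called need not be unchanged. A fold is a ratio of group mean FPKM. The members and lists were chosen with earlier results of these data known. Values in every library are given for the 5 highest and 5 lowest called members without overlap in BafA1 with control, and the 3 highest and 3 lowest in the other comparisons; 3 partners each way were named in both BafA1 comparisons, by group means or changes; 1 gene that this rule names is not reported here, and other genes were named after their values were seen. Gene positions, GC content and overlaps came from GENCODE release 44, which need not be the authors' release, and promoters from RefSeq.

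Alternatives were another pseudocount (0.1), other filters (5 FPKM, none), median-of-ratios and quantile scaling, no trend, a replicate block, the compared groups alone, each library left out, and a GC and length correction. Deviations of libraries with the same replicate number correlated at -0.07 to 0.14, and those with other numbers at -0.15 to 0.12. No pairing by number was thus visible, though with 3 libraries a group this cannot exclude one.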

Additional observations from a re-analysis of the deposited data

Results flagged for a closer look

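The BafA1 change differed between cells with and without FAC, by the interaction term of limma at an adjusted p under 0.05, in 21 members, 46.7% of the 45 tested beside 50.1% of all genes. All values are the log2 change with FAC minus that without. Among the ESCRT-III and VPS4 genes it was 0.59 for CHMP6, 0.49 for CHMP1A, 0.43 for CHMP4A, 0.4 for CHMP2A, 0.3 for CHMP4B, 0.31 for VPS4A and 0.19 for CHMP3, and -0.14 for CHMP2B, -0.28 for CHMP1B and -0.32 for VPS4B. The paralogs CHMP1A and CHMP1B, CHMP2A and CHMP2B, and VPS4A and VPS4B thus had interactions of opposite sign. With the GC and length correction, however, CHMP2A was at 0.1 (adjusted p = 0.249) and CHMP2B at 0.01 (adjusted p = 0.86), and neither was called.

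In ESCRT-II it was 0.45 for VPS25 and 0.37 for VPS36, and in ESCRT-I -0.68 for VPS37A and -0.21 for VPS28. The HOPS genes VPS33A (0.48) and VPS18 (0.31), VPS33B of CHEVI (0.44), the retromer genes VPS26B (0.29) and VPS29 (0.24), VPS45 (-0.29) and VPS13C (-0.36) complete the set. With the GC and length correction 8 of the 21 lost the call.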

How the results depend on the processing

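Transcript GC content moved with the BafA1 change. FPKM without counts, an estimated depth and 3 libraries a group limit precision, most for low genes such as CHMP4C, and in comparisons across FAC the agent and the way entries were filled on the 2 sides cannot be told apart. The interaction, which sets the 2 sides against each other, rests on changes being comparable between them. Of the calls, 22 of 29 in BafA1 with control, 4 of 8 in FAC+BafA1 with FAC, 14 of 23 in FAC+BafA1 with BafA1 and 10 of 21 interactions held in every alternative run. The member median in BafA1 with control was 0.02 with median-of-ratios scaling, 0.03 with GC and length correction and 0.03 with both, in place of -0.04. With median-of-ratios scaling it was -0.05 in FAC+BafA1 with BafA1 (0.01 otherwise) and -0.08 for the interaction (-0.01 otherwise), where a mean of at least 5 FPKM gave 0.04. Without a filter 5 members, not 8, were called in FAC+BafA1 with FAC, beside 5.78% of all genes, not 19.3%. Among all genes FAC with control had 1308 calls, 402 at a mean of at least 5 FPKM and 4486 without a filter. The filters change which genes are tested; for the other shifts the cause was not tested.

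Leaving out 1 library gave 24 to 29 members called in BafA1 with control, 0 to 1 in FAC with control (1 without FAC replicate 1), 20 to 26 in FAC+BafA1 with BafA1, 17 to 21 interactions and 5 to 9 in FAC+BafA1 with FAC, with 5 without FAC replicate 2 and 5 without FAC+BafA1 replicate 3. Of all genes, 63.2% to 67.2%, 9.06% to 9.71%, 63.5% to 68.5%, 46.6% to 48.3% and 13.4% to 19.3% were then called in that order. In FAC+BafA1 with FAC the share was 13.9% without FAC replicate 2 and 14.6% without FAC+BafA1 replicate 3. The member medians ran from -0.04 to -0.01, 0 to 0.01, -0.01 to 0.04, -0.03 to 0.04 (0.04 without control replicate 3) and -0.03 to 0.02 in the same order. With the replicate number as a block, a pairing the libraries do not show (5 of 12 correlated best with their own number), 28, 0, 20, 20 and 7 members were called in that order. The like shares of all genes were 66.4%, 9.49%, 67.3%, 49% and 17.3%.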

Other observations

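VPS72, the chromatin gene, read 70.6 to 75.7 FPKM as group means and was called in none of the comparisons as fitted.

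Some entries that overlap members differed in level between the FAC sides. That beside VPS4A had a mean of 2.04 FPKM in control and 38.64 with FAC, and that beside VPS37C 1.57 and 0.02. VPS4A (29.4 and 29.1 FPKM) and VPS37C (8.17 and 7.52 FPKM) themselves were not called in FAC with control.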
